A study of Rattus norvegicus with 18 samples.

Results

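Ageing of the liver was followed in male Wistar rats that ate a diet with fish oil as its fat, by comparing 3 livers taken at 24 months (old) with 3 taken at 6 months (young). These were the 6 samples whose titles name fish oil, out of 18 in the study, and all 14217 measured genes were compared. RNA from each liver was hybridised to 1 Affymetrix Rat Genome 230 2.0 array. Each set of short probes on it is meant to read 1 transcript, though some sets match several genes. The other 12 livers came from rats given virgin olive oil or sunflower oil, again 3 at 6 months and 3 at 24 months for each oil. All rats ate a semi-synthetic, isoenergetic diet of the AIN93 type with 4% fat by weight, without limit for the first months and then at 25 g per rat and day, and lived 3 to a cage, per the labels. Which rats shared a cage is not given in the labels, so cage and group cannot be told apart. Livers are numbered here as in the sample titles.

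Fish oil supplies long-chain omega-3 fats, among them EPA and DHA, which are ligands of the fatty acid sensor PPAR-alpha and lower the activity of SREBP-1c, the switch for fatty acid synthesis in liver. The ageing liver is known for a rise of immune and interferon-responsive transcripts, and promoters of interferon target genes carry short elements known as ISRE and GAS. Hepatocytes also carry most of the body's amino acid breakdown, gluconeogenesis and urea production, all of which draw on mitochondrial respiration.

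A signal below is the value deposited for a probe set, in linear units after scaling of every array to a common trimmed mean. A change is the difference of log2(signal + 16) between the old and the young group, with its standard error from limma, so the changes of dim genes are understated. A gene rose or fell where limma's p-value, adjusted by Benjamini-Hochberg over 14217 genes, was under 0.05. The spread was pooled over all 18 arrays. Hepatocyte markers summed to 99900, 88200 and 90900 in the young and 90500, 75800 and 75300 in the old livers, and 0 of 13 of them lay under 16 on all 6 arrays.

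Before any test, 2 livers stood apart. Old liver 3 lay at least 1 log2 unit above the other 5 fish oil livers for 283 genes and below them for 100, against 2 and 2 for old liver 1 and 4 and 7 for old liver 2. Across genes its log2 signals correlated with those of the other 5 at 0.936 to 0.962, whereas old livers 1 and 2 correlated at 0.984 with each other. Young liver 2 stood above the other 5 for 48 genes and below for 39, with high signals for fatty acid synthesis. Its deviations from the group mean correlated across genes with those of the number 2 livers at 6 months on the other oils (0.404 and 0.459). The main results are therefore given with and without old liver 3, and for some lists also without the number 2 livers at 6 months. Any gene said below to have risen or fallen and given without such a value no longer passed when old liver 3 was left out.

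With age on fish oil, 176 genes rose and 67 fell, together 243 of 14217, or 1.71% (1.24% higher, 0.471% lower). The largest rises were those of Akr1b7, Lcn2 and Slc34a2 and the largest falls those of Sds, Inmt and Pfkfb1. By list, interferon response genes held 18 of the rises and oxidative phosphorylation 7 of the falls. Counts of list members below are to be read against the 1.24% of all genes that rose and the 0.471% that fell. All 3 old livers lay above all 3 young ones for 12.5% of genes and below for 8.38%. At an unadjusted p under 0.05 limma listed 2410 genes, 17% of those tested.

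The count rested on single livers. Without old liver 3, 13 genes rose (0.0914%) and 2 fell (0.0141%), and 14 of these 15 (0.106% of genes) were among the 243. Without old liver 1 the count was 562, and without old liver 2 it was 36. Leaving out young liver 1, 2 or 3 left 19, 104 or 7 genes. The split of directions depended on how the arrays were scaled. Of the called genes 72.4% rose as deposited, 61.8% (63 higher, 39 lower) after a further quantile normalization, and 35.5% (132 higher, 240 lower) when each array was centred on its median, which moved the median change of all genes from 0.05 to -0.11. With a pseudocount of 1 in place of 16, 3 genes were called. Livers of the same number correlated in their deviations across oils at 6 months (0.153 to 0.459). With the number as a replicate block within each age 11 genes were called, 8 of them among the 243. That fit compared a reference number at each age and not the group means, so the changes themselves moved. Pdk4, for example, gave 1.1 in it and 1.93 in the main fit. Its count is therefore not that of the same contrast.

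Each old liver was also set against the young range. Old liver 1 lay at least 1 log2 unit above the highest young liver for 51 genes (0.359%) and below the lowest for 25 (0.176%). Old liver 2 did so for 127 (0.893%) and 42 (0.295%). Old liver 3 did so for 566 (3.98%) and 199 (1.4%). Among the 176 genes that rose, old liver 3 was the highest of the old livers for 142 (80.7%, against 39.5% over all genes), and among the 67 that fell it was the lowest for 43 (64.2%, against 36.2%).

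**Figure D1:**
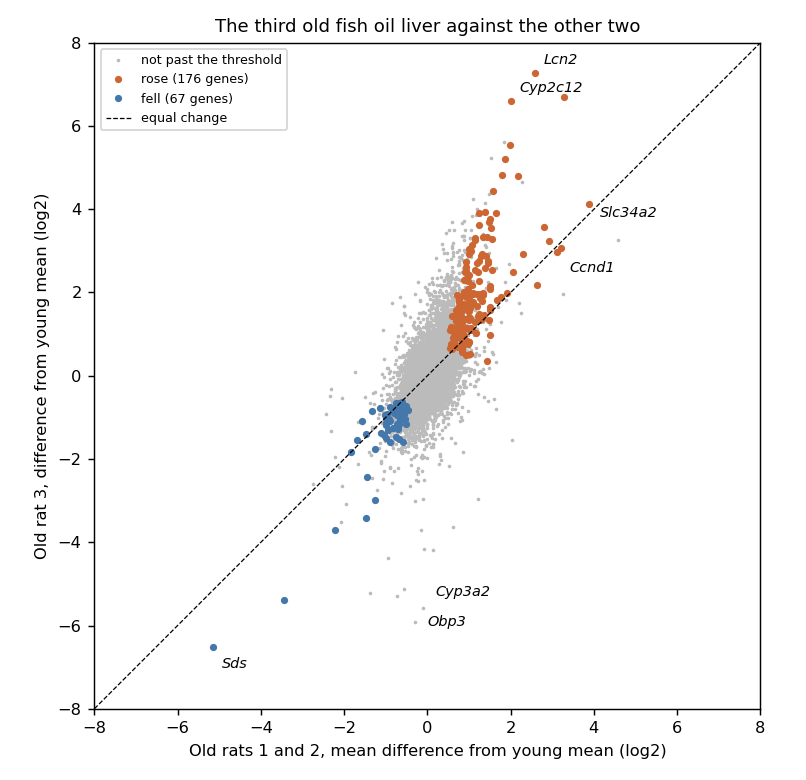
Each point is 1 of 14217 genes; the x axis gives the mean difference of old livers 1 and 2 from the young fish oil mean and the y axis that of old liver 3, both in log2(signal + 16). Most of the 176 genes that rose (orange) lie above the line of equal change, as Lcn2 and Cyp2c12 do, while Slc34a2 and Ccnd1 lie near it, and Obp3 and Cyp3a2 lie far below it.

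Interferon response genes gave the highest count of any pathway list. Of 38 measured members 18 rose and 0 fell, against 1.24% of all genes, and the median change was 1.35 against 0.05 over all genes. In 29 of the 38 the old livers did not overlap the young ones, against 12.5% of all genes. The median member stood 0.87 above the young mean in old liver 1, 1.09 in old liver 2 and 1.90 in old liver 3, so every old liver was high and the third was highest. Without old liver 3 the median was 0.97 and 1 member, Cxcl10, passed the threshold. Under quantile normalization 9 members rose and under median centring 19, with medians of 1.27 and 1.19. Without the number 2 livers at 6 months 13 members rose, with a median of 1.4.

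The promoters of the 4 members with the largest change past the threshold are shown because their matches to the interferon elements can be read directly. They run from 250 bases before to 50 bases after the gene's start, in the direction of transcription, from RefSeq on assembly GRCr8. Capitals mark matches to an ISRE-like motif (GAAA, any 2 bases, GAAA) or to the GAS motif (TTCNNNGAA), both searched on either strand.
Cxcl10, chr14:15988816-15989115, plus strand: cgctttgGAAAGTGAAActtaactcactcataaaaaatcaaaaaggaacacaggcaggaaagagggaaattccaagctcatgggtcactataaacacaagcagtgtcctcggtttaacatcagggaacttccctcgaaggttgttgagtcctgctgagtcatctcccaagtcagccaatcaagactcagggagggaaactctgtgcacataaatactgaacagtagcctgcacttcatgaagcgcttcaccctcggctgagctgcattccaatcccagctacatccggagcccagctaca
Cxcl9, chr14:16006916-16007215, plus strand: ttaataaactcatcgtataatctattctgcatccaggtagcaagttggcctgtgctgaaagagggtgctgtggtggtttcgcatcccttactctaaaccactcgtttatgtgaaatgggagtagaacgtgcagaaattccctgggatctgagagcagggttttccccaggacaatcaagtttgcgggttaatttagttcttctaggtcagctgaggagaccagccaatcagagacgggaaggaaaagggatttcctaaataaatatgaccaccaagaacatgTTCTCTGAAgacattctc
Igtp, chr10:42874797-42875096, plus strand: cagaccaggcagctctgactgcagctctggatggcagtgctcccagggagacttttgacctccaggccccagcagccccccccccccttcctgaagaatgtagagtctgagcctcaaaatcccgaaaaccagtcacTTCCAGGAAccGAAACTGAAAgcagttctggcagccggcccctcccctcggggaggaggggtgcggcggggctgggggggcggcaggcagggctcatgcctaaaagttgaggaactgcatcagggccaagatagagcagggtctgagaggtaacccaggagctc
Irgm, chr10:33742529-33742828, minus strand: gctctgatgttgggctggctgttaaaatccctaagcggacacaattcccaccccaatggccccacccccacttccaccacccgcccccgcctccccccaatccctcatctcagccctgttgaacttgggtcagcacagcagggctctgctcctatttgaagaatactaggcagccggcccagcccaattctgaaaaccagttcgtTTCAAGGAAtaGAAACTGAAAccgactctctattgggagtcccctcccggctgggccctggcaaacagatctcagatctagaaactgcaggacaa
The ISRE-like match of Cxcl10 began 243 bases before the start. In Igtp it began 103 bases before the start and in Irgm 34 bases before, with the same letters GAAACTGAAA in both and a GAS match just upstream of each, beginning at 114 and 45 bases. Cxcl9 held a GAS match that began 32 bases after the start and no ISRE-like match in this window. Of 27457 rat promoters of this length, 1034 (3.77%) held the ISRE-like motif and 2382 (8.68%) held GAS. Of the 30 interferon members with a promoter entry, 20 (66.7%) held the former and 14 (46.7%) the latter. Of 13 members that rose and had an entry, 8 (61.5%) and 5 (38.5%) did.

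Cxcl10 and Cxcl9 encode chemokines that draw T cells through the receptor Cxcr3. Cxcl10 signals were 15.5, 9.8 and 5.8 in the young livers and 48.1, 150.9 and 1204.0 in the old ones. The groups did not overlap, and old liver 3 held the highest value by far. The change was 3.17 ± 0.65 (limma adjusted p = 0.0317), and 1.99 without old liver 3 (adjusted p = 0.0304). Cxcl9 read 68.3, 46.6 and 34.0 when young and 213.3, 222.4 and 2351.4 when old, a change of 2.98 ± 0.63 (adjusted p = 0.0368). Old livers 1 and 2 were alike here and both above the young range, and the change without old liver 3 was 1.87 (adjusted p = 0.065).

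Igtp and Irgm encode interferon-induced GTPases that take part in defence against intracellular pathogens. Igtp rose from 112.6, 255.4 and 79.5 to 348.4, 531.6 and 3231.3, a change of 2.53 ± 0.57 (limma adjusted p = 0.0401). Irgm rose from 52.5, 120.5 and 40.1 to 144.2, 264.6 and 1216.8, a change of 2.24 ± 0.52 (adjusted p = 0.0412). In both genes young liver 2 was the highest young liver and lay closest to old liver 1. Without old liver 3 the changes were 1.58 and 1.39, and neither passed (adjusted p = 0.116 and 0.134). The other 14 members that rose were the transcription factors Irf1 and Irf7, the antiviral effectors Ifit1, Ifit2, Ifit3, Isg15, Mx1, Mx2, Oasl, Bst2, Eif2ak2, Rtp4 and Herc6, and the secreted galectin-binding protein Lgals3bp.

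Antigen presentation genes were higher too, most of all in old liver 3. Of 25 measured members 5 rose and 0 fell, against 1.24% of all genes that rose, with a median change of 1.09. The median member stood 0.57, 0.94 and 2.31 above the young mean in old livers 1, 2 and 3. RT1-Da, an alpha chain of rat class II MHC, read 303.8, 204.7 and 303.1 when young and 705.5, 847.0 and 3619.6 when old (change 2.22 ± 0.48, limma adjusted p = 0.0378). Cd74, the invariant chain that escorts class II molecules, read 593.8, 257.2 and 400.1 and then 1014.9, 1400.0 and 3979.5 (2.13 ± 0.47, adjusted p = 0.0386). Both genes were separated between the ages in every liver, with changes of 1.48 and 1.56 without old liver 3 (adjusted p = 0.13 and 0.167). RT1-Db1, a class II beta chain, rose by 1.87, Tap1, a peptide transporter for class I loading, by 1.85, and RT1-CE5, a class I gene, also rose. RT1 genes have near-identical copies, so their probe sets may read more than 1 gene, and a second, dimmer probe set of Tap1 gave 0.28. The list had a median of 0.50 without old liver 3 and 0 members passed, as was also the case without the number 2 livers at 6 months (median 1.10).

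Inflammatory cytokines, chemokines and NF-kappaB genes showed fewer calls. Of 41 measured members 2 rose, against 1.24% of all genes, and the median change was 0.60, or 0.23 without old liver 3. Ccl2, which recruits monocytes, read 1.9, 5.4 and 1.0 when young and 18.2, 85.4 and 263.4 when old (2.41 ± 0.50, limma adjusted p = 0.034). Tlr4, the endotoxin receptor, read 2.9, 5.1 and 12.5 and then 29.6, 15.8 and 46.7 (1.00 ± 0.24, adjusted p = 0.0482). All of these young values lie under the pseudocount of 16. Neither passed when old liver 3 was left out (1.66 and 0.76, adjusted p = 0.116 and 0.233). With the number 2 livers at 6 months left out, 0 members of the list passed (median 0.57). Among 36 acute phase and complement genes Lcn2 alone rose, and the list's median change was 0.15.

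Markers of blood and resident immune cells were higher in the same livers. In bulk tissue more cells of a type and more RNA per cell cannot be told apart, and fewer cells or less RNA per cell likewise. The counts that follow stand against 1.24% of all genes that rose. Of 13 macrophage and Kupffer cell markers 3 rose (Gpnmb, Cd68 and Cd5l), all 13 had a change above 0, and their summed signal ran from 2040 to 3530 in young and from 4540 to 9920 in old livers. Of 17 monocyte and granulocyte markers 4 rose (Fcnb, Itgax, Fcgr3a and Itgam), and the sums ran from 1930 to 2360 and from 2500 to 10700. Of 27 T and NK cell markers 5 rose (Gzma, Cd8a, Gzmm, Cxcr3 and Klrd1), with sums from 422 to 631 and from 708 to 1300. All 3 sums were highest in old liver 3, and the young and old ranges did not overlap. Trem2, Ccr2, Camp, Cd28 and Ncr1 lay under 16 on all 6 arrays. The interferon list shares 0 members with any of these marker lists. The part of these cells in the interferon and antigen presentation results was not tested.

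Gpnmb, a glycoprotein of phagocytes, read 139.4, 65.8 and 78.3 when young and 262.1, 809.3 and 2926.5 when old (3.05 ± 0.54, limma adjusted p = 0.022). It still passed without old liver 3 (2.17, adjusted p = 0.0435). Cd5l, a macrophage-secreted protein, read 465.0, 322.9 and 362.3 and then 781.7, 773.2 and 1430.2 (1.29 ± 0.24, adjusted p = 0.026). Itgax, the integrin known as CD11c, read 2.7, 4.7 and 5.9 and then 25.3, 46.2 and 137.9 (1.85 ± 0.36, adjusted p = 0.0291). The last 2 changes were 1.01 and 1.31 without old liver 3 (adjusted p = 0.0903 for each). In these 3 genes old liver 3 was highest and old livers 1 and 2 were already above every young liver.

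The T cell markers were dim and changed by less. Cxcr3, the receptor of Cxcl9 and Cxcl10, read 14.3, 17.1 and 13.7 when young and 33.1, 37.3 and 52.0 when old (0.86 ± 0.15, limma adjusted p = 0.0204). Gzma, a granule protease of killer cells, read 22.7, 19.1 and 20.0 and then 47.5, 49.3 and 105.0 (1.12 ± 0.24, adjusted p = 0.0358). Young and old livers did not overlap in either gene, and without old liver 3 the changes were 0.72 and 0.82 (adjusted p = 0.0837 and 0.146). With old liver 3 left out, 0 T and NK markers and 0 monocyte markers passed, and of the macrophage markers Gpnmb passed. Without the number 2 livers at 6 months, 1, 0 and 1 markers passed. The 11 B and plasma cell markers, 17 stellate, 15 endothelial and 12 cholangiocyte markers had 0 calls, with median changes of 0.06, 0.35, 0.24 and 0.29. Of these, 5 B and plasma cell, 1 stellate and 5 cholangiocyte markers lay under 16 on all 6 arrays. The summed cholangiocyte signal ran from 317 to 388 in young and from 515 to 1150 in old livers, without overlap. The sums of the other lists named here overlapped between the ages.

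**Figure D2:**
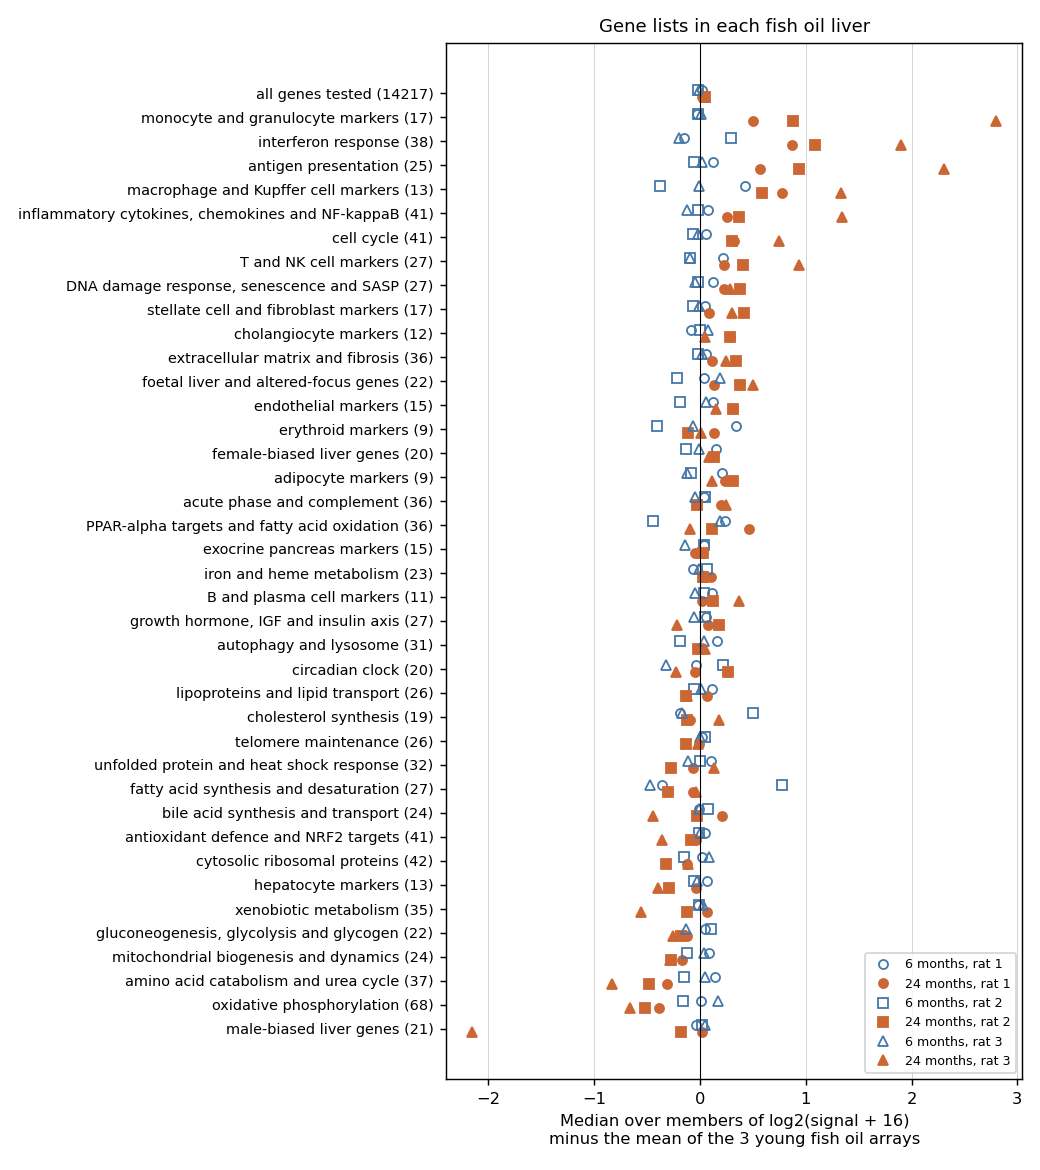
For each list (number of measured genes in brackets) the median over its members of log2(signal + 16) minus the young fish oil mean is plotted for each young (open) and old (filled) liver. Old liver 3 (filled triangles) lies farthest out for monocyte and granulocyte markers (2.80) and for male-biased genes (-2.15), whereas the 3 old livers lie together for oxidative phosphorylation (-0.39, -0.52 and -0.66).

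The largest rises outside the immune lists included genes on which all 3 old livers read alike. Slc34a2, a sodium-phosphate cotransporter, read 85.0, 62.4 and 82.1 in young livers and 1030.4, 1740.1 and 1586.7 in old ones. Every old liver was far above every young one, the change was 3.96 ± 0.41 (limma adjusted p = 0.000536), and it was 3.88 without old liver 3 (adjusted p = 0.00385). Of the 61 called genes picked for naming, Slc34a2 was the only one that kept its call under every alternative tried. Mybl1, a MYB-family transcription factor, read 10.9, 6.6 and 7.7 and then 143.5, 195.9 and 213.2 (3.02 ± 0.38, adjusted p = 0.00226). It passed without old liver 3 too (2.92, adjusted p = 0.0239).

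A second set of rises was uneven among the old livers. Akr1b7, an aldo-keto reductase, read 11.7, 3.2 and 1.2 when young and 99.7, 340.3 and 2165.3 when old (4.42 ± 0.93, limma adjusted p = 0.0357). Lcn2, a siderophore-binding acute phase protein, read 21.3, 11.0 and 28.9 and then 75.5, 489.5 and 5520.1 (4.16 ± 0.91, adjusted p = 0.0386). Old liver 3 exceeded the other old livers several-fold in both, although old livers 1 and 2 also lay above the young ones. Cyp2c12, a steroid sulfate hydroxylase that rat liver normally makes in females, read 19.5, 85.5 and 39.0 and then 152.5, 317.0 and 5685.3 (3.55 ± 0.87, adjusted p = 0.0493). The changes were 3.28, 2.59 and 2.02 without old liver 3, and none of the 3 passed (adjusted p = 0.15, 0.0903 and 0.124).

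Cyp4a8, of the P450 family that hydroxylates fatty acids at the omega end, read 21.9, 26.5 and 2.7 when young and 194.8, 328.2 and 230.1 when old (3.07 ± 0.59, limma adjusted p = 0.0291). Prlr, the prolactin receptor, read 59.5, 30.4 and 14.0 and then 453.7, 211.8 and 550.1 (3.06 ± 0.53, adjusted p = 0.0204). Old liver 3 did not stand out from the other old livers in either gene. The changes without old liver 3 were 3.11 and 2.79, nearly the same size, but with 2 old arrays left neither passed (adjusted p = 0.0903 and 0.0901). P450 and aldo-keto reductase genes have close relatives in the rat, so their probe sets may read more than 1 gene.

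**Figure D3:**
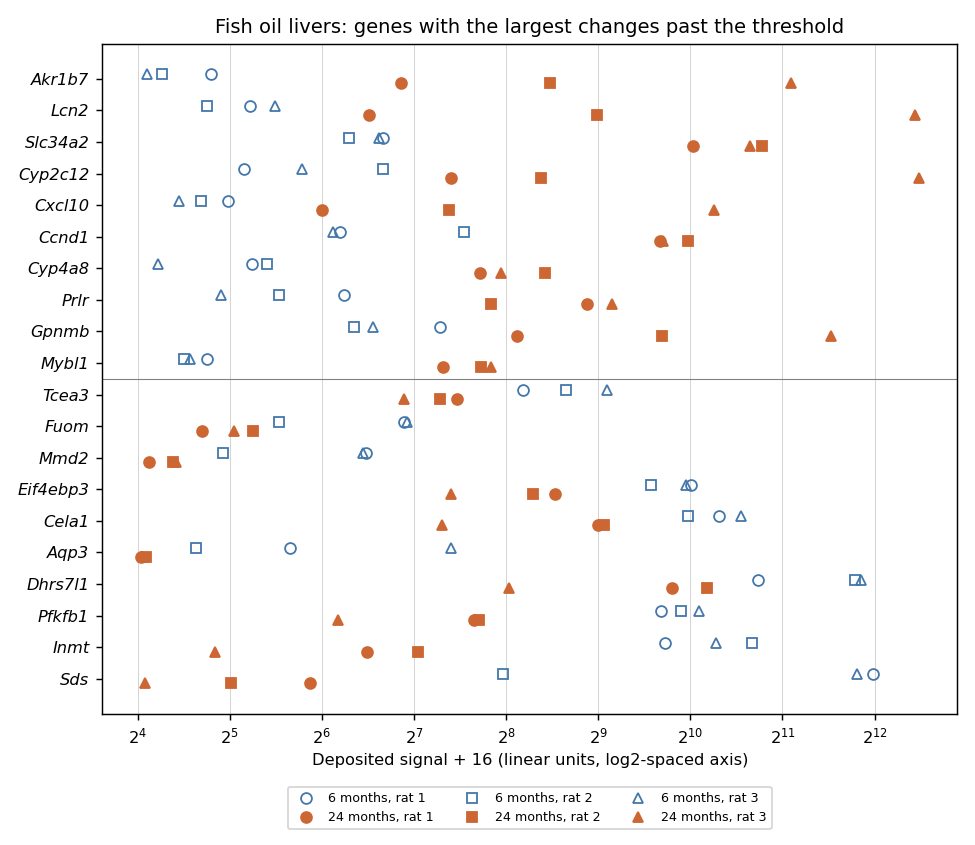
Deposited signal plus 16 on a log2-spaced axis for the 10 genes with the largest rises (top) and the 10 with the largest falls (bottom), in each of the 3 young (open) and 3 old (filled) fish oil livers. Young and old values do not overlap in any of the 20 genes, as their choice required; Slc34a2, Ccnd1 and Mybl1 have old values close together, while Lcn2 runs from 75.5 to 5520.1 before 16 is added.

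Of 41 measured cell cycle genes 7 rose and 0 fell, against 1.24% of all genes that rose, and 34 did not pass. The median change was 0.47, and 39 changes were above 0, against 8183 of all 14217 genes. Ccnd1, the cyclin that carries cells from G1 towards DNA synthesis, read 57.5, 170.4 and 53.4 in young livers and 800.3, 987.9 and 816.5 in old ones. All old livers were high and close together, and the change was 3.16 ± 0.75 (limma adjusted p = 0.0455), with 3.20 without old liver 3 (adjusted p = 0.162). The MCM proteins form the helicase that opens DNA at replication origins, and Mcm2, Mcm4, Mcm5 and Mcm6 rose. Mcm4 read 17.0, 16.7 and 27.5 and then 71.9, 43.5 and 47.0 (0.94 ± 0.16, adjusted p = 0.0204), and it alone of the list passed without old liver 3 (1.00, adjusted p = 0.0457). Ccnd2, a sister cyclin, rose by 1.38, and Top2a, a topoisomerase of dividing cells, by 1.14 from signals no higher than 2.4 to signals of 18.5, 20.7 and 30.1. Another probe set of Top2a, of like brightness, gave 0.48 (adjusted p = 0.36 over all probe sets). The list's calls were fewer under quantile normalization (1, median 0.37) and without the number 2 livers at 6 months (3, median 0.42).

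Myc, a transcription factor of growth, read 40.8, 97.6 and 52.9 when young and 283.8, 182.4 and 253.7 when old (1.72 ± 0.40, limma adjusted p = 0.0415). Lgals3, a galectin of macrophages and injured epithelium, read 115.7, 99.7 and 148.8 and then 211.6, 630.5 and 1820.5 (2.25 ± 0.50, adjusted p = 0.0389). Without old liver 3, Myc gave 1.68 and Lgals3 1.50, and neither passed (adjusted p = 0.167 and 0.151). They were the 2 risers among 22 genes of foetal liver and altered hepatic foci, against 1.24% of all genes that rose. The median change of these 22 was 0.25, and 1 of them rose without the number 2 livers at 6 months. Of 27 genes of DNA damage response and senescence 0 passed. The median of that list was 0.39. Its smallest p-values were those of Mmp12, a macrophage elastase (1.97 ± 0.49, adjusted p = 0.053), and Phlda3, a p53 target (1.13 ± 0.31, adjusted p = 0.0688).

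The largest fall was in amino acid breakdown. Sds, serine dehydratase, which turns serine into pyruvate for gluconeogenesis, read 4027.1, 234.7 and 3559.6 in young livers and 42.7, 16.4 and 0.9 in old ones. Young liver 2 was far below the other young livers yet above every old one, and the change was -5.59 ± 1.09 (limma adjusted p = 0.0291), or -5.14 without old liver 3 (adjusted p = 0.121). Haao, an enzyme of tryptophan breakdown, read 2156.4, 2530.0 and 2038.8 and then 1573.6, 1518.4 and 984.9 (-0.74 ± 0.17, adjusted p = 0.0416), with -0.53 when old liver 3 was left out (adjusted p = 0.196). Of 37 genes of amino acid catabolism and the urea cycle 2 fell and 0 rose, against 0.471% of all genes that fell, with 36 changes below 0 and a median of -0.50. In 18 of the 37 the old livers lay below all young ones, against 8.38% of all genes. The median was -0.31, -0.48 and -0.83 in old livers 1, 2 and 3, and without old liver 3 it was -0.37 with 0 calls. The 13 hepatocyte markers, of which 0 passed, had medians of -0.04, -0.29 and -0.40 in the same livers (-0.21 for the group), and their part in this result was not tested. Under median centring 13 members fell, and without the number 2 livers at 6 months 5 did.

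Pfkfb1, whose bifunctional protein makes and removes fructose 2,6-bisphosphate and so sets the balance of glycolysis and gluconeogenesis, read 803.9, 936.7 and 1075.0 when young and 184.9, 193.1 and 56.3 when old (-2.71 ± 0.45, limma adjusted p = 0.0204). It was the 1 faller among 22 genes of glucose metabolism, against 0.471% of all genes that fell, and the list's median was -0.23. Inmt, a methyltransferase of indole amines, read 827.9, 1611.3 and 1226.5 and then 74.0, 116.3 and 12.6 (-4.10 ± 0.67, adjusted p = 0.0204). Both genes were several-fold lower in every old liver, and lowest in old liver 3. Without it the changes were -2.21 and -3.45 (adjusted p = 0.065 for each).

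Other large falls came from unrelated genes. Cela1, an elastase gene, read 1258.2, 989.4 and 1479.2 when young and 494.4, 518.9 and 141.7 when old (-1.83 ± 0.34, limma adjusted p = 0.026), and passed without old liver 3 (-1.25, adjusted p = 0.0349). It was the only one of 15 exocrine pancreas markers to pass, and 11 of those 15 lay under 16 on all 6 arrays. Eif4ebp3, a repressor of cap-dependent translation, read 1016.3, 747.9 and 973.5 and then 353.9, 297.2 and 153.1 (-1.77 ± 0.35, adjusted p = 0.0291), or -1.44 without old liver 3 (adjusted p = 0.124). Aqp3, a glycerol and water channel, read 34.4, 8.8 and 153.5 and then 0.4, 1.0 and 0.7 (-1.84 ± 0.42, adjusted p = 0.0412). Its young values varied widely, while the old ones lay far under the pseudocount. Tcea3, a transcription elongation factor, fell by 1.43, Fuom, a fucose mutarotase, by 1.45, and Mmd2 by 1.65 on the same scale.

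Nuclear genes of oxidative phosphorylation had lower medians in all 3 old livers. Of 68 measured subunits 7 fell and 0 rose, against 0.471% of all genes that did so. All 68 changes were below 0, with a median of -0.53, and in 54 the old livers lay below all young ones, against 8.38% of genes. The median was -0.39 in old liver 1, -0.52 in old liver 2 and -0.66 in old liver 3. The hepatocyte markers ran in the same order (-0.04, -0.29 and -0.40), and their part here was not tested. The oxidative phosphorylation median was -0.46 without old liver 3, when 0 subunits passed. The number of calls moved with the scaling, from 2 under quantile normalization (median -0.34) to 29 under median centring (median -0.68), and it was 4 without the number 2 livers at 6 months (median -0.60).

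By complex, 3 of 34 subunits of complex I, which takes electrons from NADH, fell, with a median change of -0.55. Complex II, which oxidises succinate, had 1 of 4 (median -0.45) and complex III, which reduces cytochrome c, 1 of 8 (-0.61). Complex IV, which reduces oxygen, had 0 of 9 (-0.36), and ATP synthase 2 of 13 (-0.44). Ndufs3, a core subunit of complex I, read 1395.3, 1218.9 and 1552.0 when young and 877.0, 846.0 and 606.2 when old (-0.84 ± 0.16, limma adjusted p = 0.026). Cyc1, cytochrome c1 of complex III, read 2448.6, 1884.3 and 2309.3 and then 1327.1, 1308.9 and 1131.9 (-0.80 ± 0.15, adjusted p = 0.026). Every old liver was below every young one in both genes. Ndufs7 and Ndufs8 of complex I, Sdhb of complex II, and Atp5me and Atp5f1d of ATP synthase fell as well. Atp5me had the largest change of the list (-1.16 ± 0.28, adjusted p = 0.0467), but a dimmer probe set of the same gene gave -0.17.

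**Figure D4:**
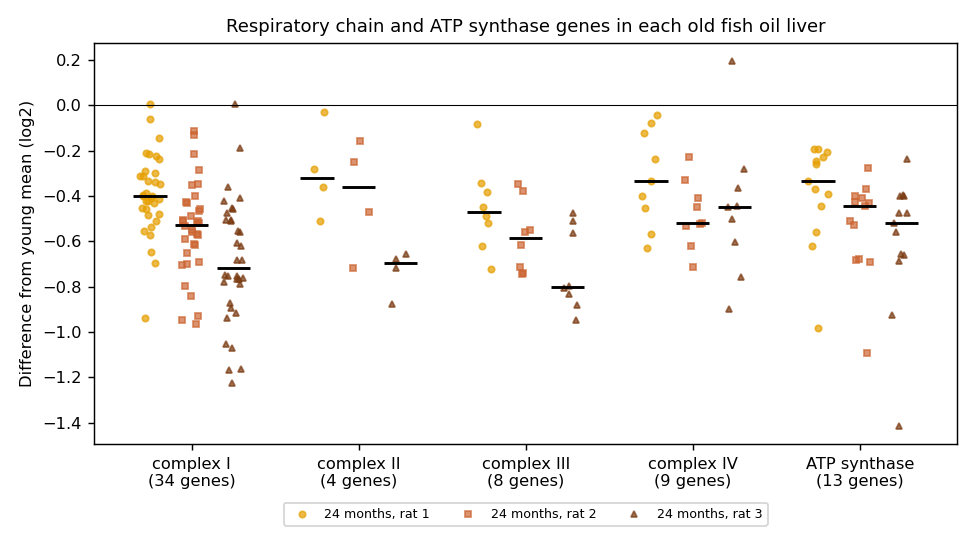
Each point is 1 of 68 respiratory chain or ATP synthase genes in 1 old fish oil liver, as log2(signal + 16) minus the young mean; bars are medians within a complex. All 15 medians lie below 0, from -0.32 (complex II, old liver 1) to -0.80 (complex III, old liver 3).

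Genes of mitochondrial biogenesis and dynamics had 0 calls of 24 and a median of -0.24. Ppargc1a, the coactivator PGC-1alpha that drives mitochondrial gene programmes, read 65.6, 48.6 and 38.5 when young and 12.4, 10.7 and 34.0 when old. Old liver 3 was here the one nearest to the young livers. The change was -0.97 ± 0.24 (limma adjusted p = 0.0501) and -1.26 without old liver 3 (adjusted p = 0.0457). Polg2, the accessory subunit of the mitochondrial DNA polymerase, gave -1.30 ± 0.33 (adjusted p = 0.0549).

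Among 41 antioxidant genes 1 rose and 3 fell, against 1.24% and 0.471% of all genes, and the median was -0.15. With the number 2 livers at 6 months left out, 1 rose and 1 fell (median -0.2). Nfe2l2, which encodes NRF2, the master regulator of the oxidative stress response, read 393.8, 415.6 and 562.7 in young livers and 801.4, 1041.4 and 1190.4 in old ones. All old livers were above all young ones (1.12 ± 0.19, limma adjusted p = 0.0204), and the change was 0.99 without old liver 3 (adjusted p = 0.0901). The members that fell were Mgst2, a microsomal glutathione transferase (-0.95), Prdx5, a peroxiredoxin (-0.84), and Txnrd2, the mitochondrial thioredoxin reductase (-0.69). Prdx5 read 2832.6, 2094.8 and 3247.2 and then 1357.8, 1701.1 and 1439.8.

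In lipid metabolism few genes passed. Of 36 genes that PPAR-alpha controls or that oxidise fatty acids 2 rose, Cyp4a8 and Pdk4, against 1.24% of all genes. The list's median was 0.12, or -0.15 without the number 2 livers at 6 months. Pdk4, the kinase that shuts pyruvate dehydrogenase when fat is burned, read 330.0, 312.4 and 339.5 when young and 1102.9, 1468.6 and 1336.0 when old. Its values were tight at both ages (1.93 ± 0.38, limma adjusted p = 0.0291), with 1.91 without old liver 3 (adjusted p = 0.116). Of 27 genes of fatty acid synthesis and desaturation 0 passed. Their summed signal was 10900, 31400 and 10400 in the young livers and 15500, 11200 and 11900 in the old ones, so young liver 2 stood alone. The list's median change was -0.07 with it and 0.33 without the number 2 livers at 6 months, when 1 member rose. Changes within the list ran from -1.7 to 4.14, with 10 above and 17 below 0. Its smallest p-values were those of Scd2 (1.30 ± 0.33, limma adjusted p = 0.0542) and Elovl1 (0.49 ± 0.14, adjusted p = 0.0738). The ages did not overlap in either gene. Dimmer probe sets of Scd2 gave 0.29, 0.12 and -0.2.

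Of 19 cholesterol synthesis genes and 26 lipoprotein and lipid transport genes 0 passed, with medians of -0.03 and 0.00. Cd36, a fatty acid transporter, read 108.9, 188.3 and 205.7 and then 447.6, 700.8 and 546.7, and its change of 1.68 ± 0.54 did not pass (limma adjusted p = 0.118). Apoa1, the main protein of HDL, gave -0.63 ± 0.18 (adjusted p = 0.0773). Of 24 bile acid genes 1 fell, against 0.471% of all genes. Cyp27a1, the mitochondrial sterol hydroxylase of the acidic bile acid pathway, read 3356.1, 3344.2 and 3560.9 when young and 2236.3, 2071.2 and 1895.9 when old (-0.72 ± 0.17, adjusted p = 0.0412). Each old liver was below the narrow young range, and the change was -0.66 without old liver 3 (adjusted p = 0.179). With the number 2 livers at 6 months left out, 0 of the 24 bile acid genes passed.

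Male-biased genes separated old liver 3 from all others by sum and by median, and female-biased genes did so by sum but not by median. In the rat, the sex difference in liver follows the pulse pattern of growth hormone secretion. Male-biased genes summed to 84100, 90200 and 87500 in the young livers and to 85800, 77500 and 27600 in the old ones, with old liver 3 far below the rest. Of 21 measured members 1 fell, against 0.471% of all genes, and the median change was -0.85, but -0.09 without old liver 3. The faller was Dhrs7l1, a short-chain dehydrogenase, which read 1687.2, 3519.7 and 3677.4 and then 872.9, 1141.6 and 246.2 (-2.12 ± 0.46, limma adjusted p = 0.0383), and without old liver 3 it gave -1.47 (adjusted p = 0.151). Of 20 female-biased members 3 rose (Akr1b7, Cyp2c12 and Prlr), against 1.24% of all genes, with a median of 0.18. Of these members 0 rose without old liver 3, and likewise 0 without the number 2 livers at 6 months. Their median was 0.10, 0.13 and 0.09 in old livers 1, 2 and 3. Their summed signal was 16300, 12500 and 15300 in the young livers and 16700, 14600 and 24200 in the old ones. Of the sum in old liver 3, Cyp2c12 alone held 5685.3. Cish, a feedback inhibitor of growth hormone signalling through STAT5, read 18.5, 25.0 and 19.7 and then 75.9, 157.5 and 121.3 (1.81 ± 0.36, adjusted p = 0.0294), with 1.77 when old liver 3 was left out (adjusted p = 0.116).

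The genes farthest from the other 5 livers in old liver 3 are given as a description, since they were picked for that distance. At the low end Obp3, an odorant-binding protein of the urinary lipocalin family, read 111.3 against 6067.5 to 9333.2 elsewhere. Cyp3a2, a testosterone hydroxylase of male rat liver, read 118.7 against 5451.1 to 6932.8, and Sult1e1, the estrogen sulfotransferase, 354.6 against 6280.1 to 7459.2. Hao2, Slc22a8, Hsd3b5, Ust5r, Rdh16, Mup5 and Akr1c3 were the other 7 of the lowest 10. At the high end stood Cyp2c12, Gbp2 (an interferon-induced GTPase, 1339.9 against 14.9 to 93.9), Lcn2, Cxcl9, Sult2a2, Cxcl1, Itgal, Cxcl10, Cybb and Dram1. Of the female-biased list, Cyp2c12 and Sult2a2 were thus at the high end and Hao2 at the low end. None of the 10 low genes passed the age test (limma adjusted p from 0.147 for Rdh16 to 0.701 for Mup5).

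In several lists 0 genes passed, with medians near that of all genes. They were the circadian clock (20 genes, median 0.00), the unfolded protein and heat shock response (32, -0.06), telomere maintenance (26, -0.04) and autophagy and lysosome (31, 0.01). A median hides opposite changes, and in the clock list they ran from -1.99 to 1.35, with 10 above and 10 below 0. Nr1d1 gave -1.82 ± 0.59 and Nfil3 1.35 ± 0.41 (limma adjusted p = 0.119 and 0.101). Edem1 of the unfolded protein list gave -1.43 ± 0.44 (limma adjusted p = 0.0998). Young and old livers did not overlap in these genes. Extracellular matrix and fibrosis genes had 0 of 36 (median 0.28), and Vim, the intermediate filament of mesenchymal cells, gave 1.50 ± 0.37 (limma adjusted p = 0.053). Cytosolic ribosomal proteins had 0 of 42, and their median was -0.17 as deposited but 0.01 under quantile normalization. Xenobiotic metabolism had Inmt as its 1 faller of 35 (median -0.21), and iron and heme metabolism had Urod, a heme synthesis enzyme, as its 1 faller of 23 (-0.70 ± 0.16, adjusted p = 0.0417). Urod did not pass without the number 2 livers at 6 months (limma adjusted p = 0.0736). These p-values do not show that the genes stayed the same.

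The same age contrast on the other oils called 20 genes on virgin olive oil (0.141%) and 0 on sunflower oil (0%). The difference between the change on fish oil and the mean change on the other oils was tested directly, and 0 of 14217 genes passed limma's threshold, with 1009 (7.1%) at an unadjusted p under 0.05. Without old liver 1 of the fish oil group 22 genes passed. The smallest p-values of the difference belonged to Cd7, Kifc3, Naaa, Cxcr3 and Laptm5. All of these rose by the age test on fish oil. Cd7 and Laptm5 still passed it without old liver 3 (0.97 and 0.96, limma adjusted p = 0.0349 and 0.0457). Cd7, a T and NK cell surface protein, changed by 0.90 on fish oil, 0.13 on olive oil and -0.34 on sunflower oil (limma adjusted p of the difference 0.172). Laptm5, a lysosomal protein of blood cells, gave 1.34, -0.11 and -0.33 in the same order (0.172). Higher values on fish oil alone were thus not separated from the spread between livers after adjustment over all genes.

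Set side by side, the median of the interferon list was 1.35 on fish oil, 0.74 on olive oil and 0.34 on sunflower oil, with 18, 2 and 0 members called. Without old liver 3 the fish oil list had a median of 0.97, against 0.74 on olive oil, and 1 member called. That fit held 2 old fish oil livers against 3 old olive oil livers, so the 2 counts of calls are not alike in power. Oxidative phosphorylation gave -0.53, -0.19 and -0.18, and amino acid catabolism -0.50, -0.27 and -0.01. Slc34a2 was high in old livers on every oil, with changes of 3.96, 2.90 and 2.53 and standard errors of 0.41 (limma adjusted p = 0.000536, 0.00968 and 0.0727). Inmt gave -4.10, -4.08 and -3.82, and Mybl1 3.02, 2.67 and 1.95. Lcn2 gave 4.16, 0.15 and 1.10, and Gpnmb 3.05, 0.64 and 0.02. Without old liver 3 the fish oil values of these 2 genes were 2.59 and 2.17.

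**Figure D5:**
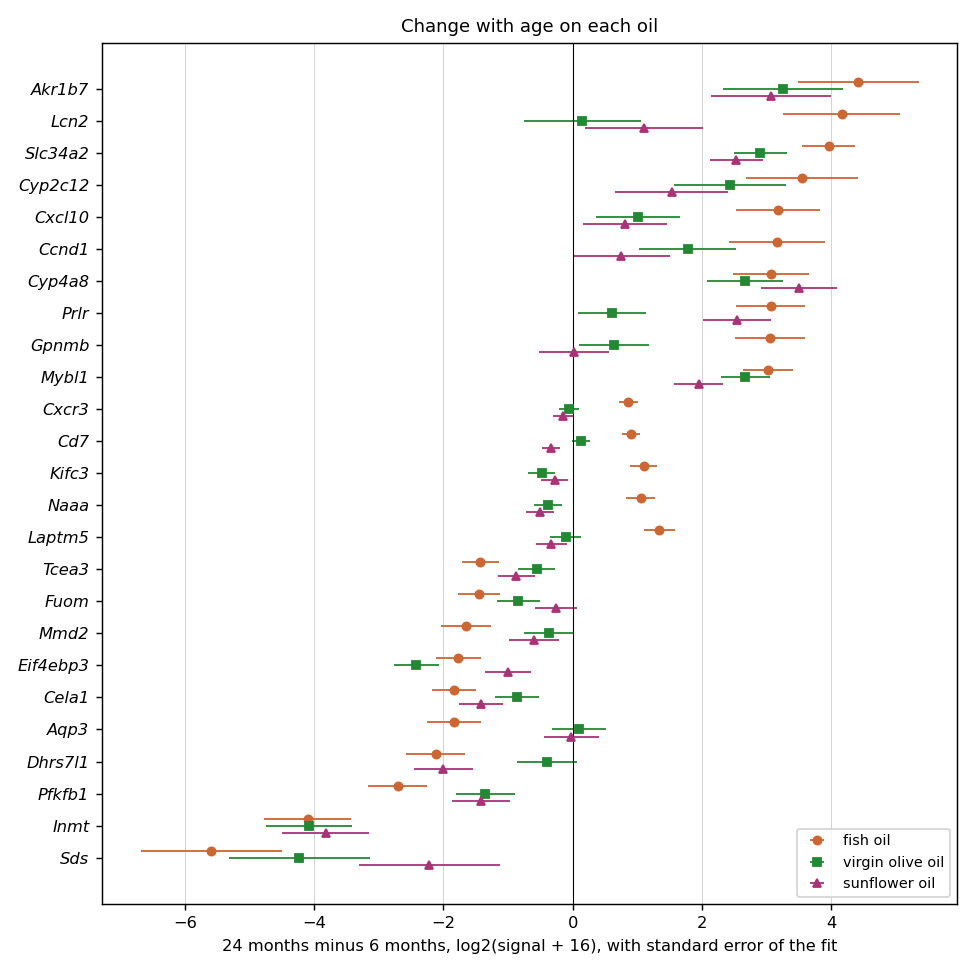
Change from 6 to 24 months in log2(signal + 16) with limma's standard error as bars, for the 10 largest rises and falls on fish oil and the 5 genes with the smallest p for a difference between oils, on fish oil (circles), virgin olive oil (squares) and sunflower oil (triangles). Cyp4a8 and Inmt have like changes on the 3 oils, while those of Slc34a2 and Mybl1 lie above 0 on each and are largest on fish oil. The first 20 genes were chosen by their change on fish oil.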

How the data were processed

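The 18 arrays gave 31042 probe sets each. The authors deposited linear intensity values; RMA and Partek appear, with no version, in the submitters' processing notes, but the values are not on RMA's log2 scale, and the steps are not given in the sources used here. Every array's trimmed mean (2% from each end) lay between 99.17 and 99.39, and array medians between 15.5 and 20.6. Values under 16 made up 47.3% over all probe sets, and log2(signal + 16) was used throughout. No depth applies to arrays, and their number, 3 per group, limits precision. P-values measure the spread between the rats sampled.

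The platform annotation gave 1 symbol for 20826 probe sets, several for 436 and none for 9780, and 20758 were matched in RefSeq by gene ID. The probe set with the highest mean represented a gene. limma 3.58.1 in R 4.3.3 (lmFit, eBayes) fitted 6 group means over 18 arrays with 12 residual degrees of freedom. Promoter sequences are RefSeq's, on GRCr8. The code of the fit was tested on simulated data. The named genes are the 10 largest rises and falls that passed with ages not overlapping, up to 4 called members per list, 2 members with the smallest p where 0 passed, 5 genes for the difference between oils and the 10 highest and 10 lowest of old liver 3; further called members were named after their values were seen. Members and lists were chosen with earlier results of these data known. Alternatives changed the pseudocount, low-signal filter, scaling, arrays fitted, probe set rule, weights and replicate block, or left out arrays. Deviations of equally numbered young and old fish oil livers correlated at -0.0453 to 0.0223 (-0.082 to 0.18 over all oils), so the numbers were not taken to pair the ages; at 6 months equal numbers correlated across oils at 0.153 to 0.459. Python 3.11.15 with pandas 2.3.3, numpy 2.4.6, scipy 1.17.1 and matplotlib 3.10.9 did the rest.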

Additional observations from a re-analysis of the deposited data

How the results depend on the processing

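Against 243 genes for ageing on fish oil, limma called 3 with a pseudocount of 1, 102 after a further quantile normalization, 372 with arrays centred on their median, 3 with the 6 fish oil arrays fitted alone, 514 with array weights and 113 over all 31042 probe sets. It called 113 without the number 2 livers at 6 months, and 13 when old liver 3 was also left out, a setting added after seeing the data. With a replicate block within each age, which compared a reference number at each age and not the group means, it called 11, 8 of them among the 243. A replicate block across all groups gave 249. Leaving out 1 fish oil liver gave 7 to 562 genes. For the difference between oils these gave 0 to 22, and the other alternatives gave 0, except that the fish oil arrays fitted alone give no such value. A pseudocount of 64 (210), a low-signal filter (224 of 7823), trended and robust estimation (271) and the mean of a gene's probe sets (227) stayed within 1.5 times. Of the 61 called genes picked for naming 0 changed direction under any alternative and 1 kept its call under all. The cause of these shifts was not tested. With 3 livers per age and 47.3% of values over all 31042 probe sets under the pseudocount, small changes of dim genes could not be resolved.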
